A study of Mus musculus with 24 samples.

Results

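Inguinal fat lies under the skin of the mouse and is a white depot that can switch on heat production. Irisin is a hormone cut from the membrane protein that Fndc5 encodes, which skeletal muscle makes in quantity, and integrins of the alpha V class have been named as its receptors. IL-33 is an alarm cytokine of stromal cells, and its receptor ST2 (gene Il1rl1) is carried by regulatory T cells, group 2 innate lymphoid cells and mast cells. The title of the series names that pathway as the route by which irisin acts on obesity. The comparison described here is the effect of the irisin vector in lean animals: C57BL6 mice given an adeno-associated virus (AAV) for irisin against C57BL6 mice given AAV-GFP, both on normal chow for 18 weeks, in inguinal white fat (iWAT), with 3 libraries per group. These are 6 of the 24 RNA sequencing libraries of the series. The other 18 come from epididymal fat (eWAT) and from mice on a high-fat diet (HFD) and enter only where named. The labels give neither age nor sex, nor the promoter, serotype, route or dose of the vector. They leave unsaid if each of the 3 libraries had its own mouse, so the p-values stand for library-to-library spread alone, which may be technical.

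Levels are FPKM, read counts scaled to gene length and library size, as deposited. A gene was tested where it reached 0.5 FPKM in 3 of the 6 libraries, which held for 14962 of 54532 genes, 12349 of them protein coding. Of the tested genes 92 passed through the irisin libraries alone and 25 through the GFP libraries alone. The coding genes just inside this limit were Zim1 and A930018P22Rik, with FPKM in the deciding library of 0.5001 and 0.5011, and those just outside were Samd5 at 0.4995 and Cd163l1 at 0.4988. Differences are irisin minus GFP on the log2(FPKM + 0.5) scale ± SE and come from limma fitted to the 12 iWAT libraries of both diets. On this scale low genes appear to change by less than they do. The gene reads recovered from the 6 libraries ranged from 14145644 to 18038268. Tissue labels were read against defining genes. The fat hormone gene Adipoq lay between 1308 and 1805 FPKM in the 6 libraries, Tbx15, a transcription factor of subcutaneous fat, between 6.07 and 14.2, and Wt1, of visceral mesothelium, at 0.0204 or less. Xist, transcribed from the inactive X chromosome of females, was at most 0.00918 FPKM.

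No gene passed the test. limma called 0 of 14962 genes at an adjusted p under 0.05 (0%), with a lowest adjusted p of 0.312. At an unadjusted p under 0.05 there were 654 genes, 441 higher with irisin (2.95% of those tested) and 213 lower (1.42%). limma's voom on the recovered reads also called 0, with 651 at an unadjusted p under 0.05. With limma's array weights, whose estimate did not converge, 2875 genes were called. The values of the irisin group lay wholly above those of the GFP group for 1257 genes (8.4%) and wholly below for 1271 (8.49%), and the median difference over all tested genes was -0.01. These percentages are the background for every count below. All differences that follow are values that did not pass the correction over all genes, and an exact permutation test of 3 against 3 libraries cannot go below 0.1. The split depended on which libraries set the spread: in a fit of the 6 chow libraries alone 660 genes were higher and 671 lower at an unadjusted p under 0.05, 4.41% and 4.48% of the genes, again with 0 called. 2 libraries stood apart, irisin chow 3, rich in muscle transcripts, and GFP chow 3, poor in macrophage, mast cell and stromal transcripts, and results that rest on them are given with and without them.

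The largest differences were in skeletal muscle genes. Myh4 encodes the myosin heavy chain of the fastest muscle fibres (ENSMUSG00000057003, chromosome 11, 67238029 to 67260446, plus strand, in the deposited table, of unstated build). It was at 0.00911, 0.0787 and 0 FPKM in GFP chow 1, 2 and 3, which is 1, 8 and 0 reads, and at 11.9, 32.9 and 543 FPKM in irisin chow 1, 2 and 3, which is 1044, 3247 and 51650 reads. All 3 irisin libraries lay above all GFP libraries, and irisin chow 3 lay far above the other irisin libraries. The difference was 6.85 ± 1.06 log2 units (limma adjusted p = 0.312), and 8.91 or 5.91 with a pseudocount of 0.1 or 1. Ckm, the muscle creatine kinase that buffers ATP, showed the same order of libraries, with 0, 0 and 0.0213 FPKM against 4.83, 17.2 and 279 (5.88 ± 1.08, limma adjusted p = 0.312). Pvalb, the calcium buffer of fast fibres, was at 0, 0.171 and 0 FPKM against 9.17, 39.6 and 383 (6.59 ± 1.15, limma adjusted p = 0.312).

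**Figure D1:**
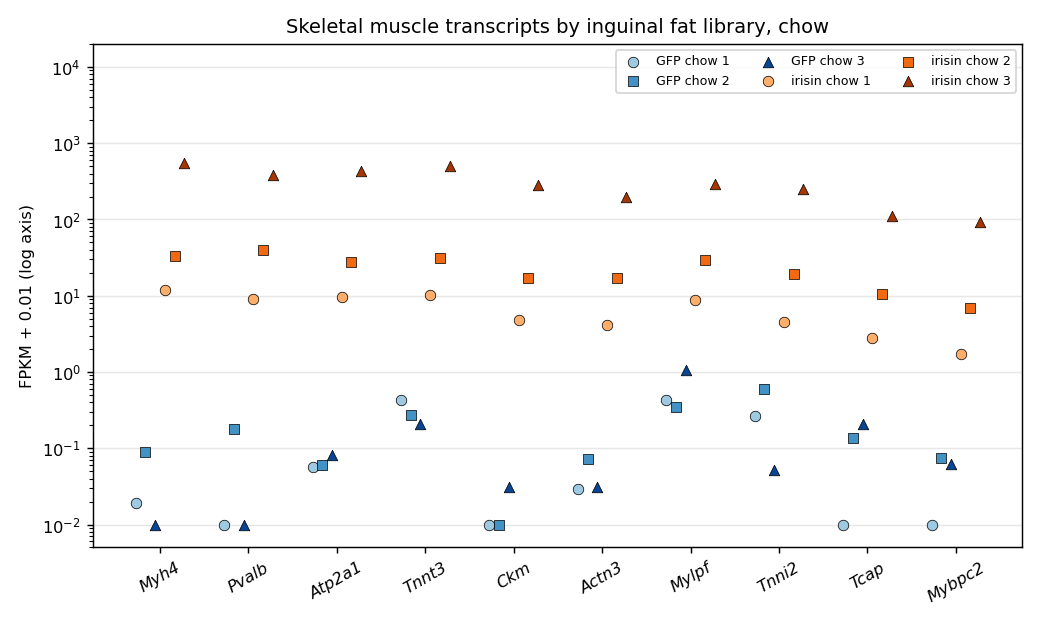
FPKM + 0.01 on a log axis for the 10 genes of the muscle lists with the largest differences, 1 point per chow library of inguinal fat. In each gene irisin chow 1, 2 and 3 stand in that order and all lie above the GFP libraries, whose highest value is 1.05 FPKM.

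The sequences before the starts of 3 of these genes are shown because the genes move together across the 6 libraries. They are RefSeq promoter windows on build GRCm38.p6, from 250 bases before the start to 50 after, printed 5′ to 3′ on the gene's strand. Capitals mark the E-box (CANNTG, the letters read by myogenic factors such as MyoD) and the MEF2 consensus by its name, each searched on both strands. No E-box overlapped a MEF2 match in these windows. The Myh4 window is chr11:67237562-67237861 (plus strand), the Ckm window chr7:19410844-19411143 (plus strand), and the Pvalb window, at 1 of its 2 starts, chr15:78206351-78206650 (minus strand).
Myh4: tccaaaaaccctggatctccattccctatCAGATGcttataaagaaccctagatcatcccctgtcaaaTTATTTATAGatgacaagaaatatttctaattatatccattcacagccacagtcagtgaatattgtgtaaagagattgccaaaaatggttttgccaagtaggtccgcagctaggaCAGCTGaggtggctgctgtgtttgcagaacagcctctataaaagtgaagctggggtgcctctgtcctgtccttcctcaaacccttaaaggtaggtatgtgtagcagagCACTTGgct
Ckm: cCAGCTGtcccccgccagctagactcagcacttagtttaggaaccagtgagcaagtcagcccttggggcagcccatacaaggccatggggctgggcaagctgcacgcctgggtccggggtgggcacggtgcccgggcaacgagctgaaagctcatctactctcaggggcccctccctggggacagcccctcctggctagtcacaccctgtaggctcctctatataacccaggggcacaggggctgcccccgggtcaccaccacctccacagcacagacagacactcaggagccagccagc
Pvalb: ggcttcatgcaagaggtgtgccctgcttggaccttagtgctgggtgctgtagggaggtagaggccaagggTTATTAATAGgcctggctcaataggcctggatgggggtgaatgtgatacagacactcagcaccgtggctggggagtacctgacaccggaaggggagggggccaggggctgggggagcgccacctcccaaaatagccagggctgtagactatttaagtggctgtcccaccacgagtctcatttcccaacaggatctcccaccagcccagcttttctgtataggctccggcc
The Myh4 window held 3 E-boxes and 1 MEF2 match, the Ckm window 1 E-box and no MEF2 match, and the Pvalb window 1 MEF2 match and no E-box, while the window at its other start held 2 E-boxes. Of the 100 genes in the muscle lists 74 had a window: 65 of these (87.8%) held an E-box and 14 (18.9%) a MEF2 match. Over the 27025 genes with a window the shares were 75% and 3.7%, and over the 32851 windows 72.3% and 3.19%. A match describes letters in a window and does not show that a factor binds there.

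The 100 genes of the 6 muscle lists took 0.0250%, 0.0228% and 0.0324% of the reads in GFP chow 1, 2 and 3. In irisin chow 1, 2 and 3 they took 0.0582% (95% Clopper-Pearson interval 0.0569 to 0.0595), 0.137% (0.136 to 0.139) and 1.70% (1.697 to 1.71). These intervals cover counting error only. The irisin group thus held a mean of 0.633% with an SD of 0.928 (n = 3), larger than the mean, and the GFP group 0.0267% with an SD of 0.00505. The 3 irisin libraries on HFD held between 0.0267% and 0.0294%, and the 12 eWAT libraries between 0.0155% and 0.0383%. Only 40 of the 100 genes were tested and 15 of these passed through the irisin libraries alone, so counts over them describe and do not support. Of the 40, 38 were higher, 26 of them at an unadjusted p under 0.05, and 25 had groups that lay apart. A further 31 of the 100 reached 0.5 FPKM in irisin chow 3 only, and 22 were listed at 0 in all 3 GFP libraries. More muscle fibres in a sample and more RNA per fibre cannot be told apart in bulk tissue.

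Of the 40 tested muscle genes 28 stood in the order irisin chow 1, 2, 3 with a range of at least 2 log2 units. Since that order chose them, their ratios only describe it. The level in irisin chow 3 was a median of 34.6 times that in irisin chow 1 (quartiles 23.0 and 48.9). It was 13.1 times that in irisin chow 2, and irisin chow 2 was 2.77 times irisin chow 1. Among the sarcomeric myosin heavy chains, on a scale per length, Myh4 made up 95.3%, 94.9% and 86.0% in irisin chow 1, 2 and 3. The chain of intermediate fast fibres, Myh1, made up 3.80%, 3.68% and 10.3%, the fast oxidative Myh2 0.462%, 1.38% and 3.50%, and the slow Myh7 0%, 0% and 0.172%. The fast chain Myh4 thus led in every irisin library, with more Myh1 and Myh2 in irisin chow 3.

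By role, the contractile filaments came first. In the thick filament, Mylpf, a fast light chain, was at 0.413, 0.334 and 1.05 FPKM with GFP and 8.79, 29.8 and 290 with irisin, and the myosin binding protein gene Mybpc2 at 0, 0.0655 and 0.0516 against 1.71, 6.85 and 91.3. In the thin filament, Tnnt3 and Tnni2 encode fast troponins. Tnnt3 was at 0.416, 0.262 and 0.196 against 10.2, 31.7 and 508 FPKM, a difference of 6.15 ± 1.10 (limma adjusted p = 0.312). Acta1, the muscle actin, already had 16.9 to 25.3 FPKM in GFP libraries and stood at 30.9, 99.0 and 1614 with irisin. At the Z-disc, which anchors the thin filaments, the fast actinin Actn3 was at 0.0190, 0.0613 and 0.0215 against 4.10, 17.1 and 199 FPKM, and the calcineurin-binding protein gene Myoz1 was listed at 0 in each GFP library and at 1.27, 3.93 and 50.4 with irisin. For calcium handling, Atp2a1, the calcium pump of the fast sarcoplasmic reticulum, was at 0.0474, 0.0510 and 0.0715 against 9.52, 27.7 and 435 FPKM (6.48 ± 1.03, limma adjusted p = 0.312). The myogenic regulators gave little: Myod1 was at 0 in the 3 GFP libraries and at 0, 0.0655 and 0.985 FPKM with irisin, Myog reached 0.0845 only in irisin chow 3, and 1 of the 15 genes in that list was tested.

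The choice of library decided which muscle genes passed the test. Without irisin chow 1 limma called 9 genes, all from the muscle lists and all higher: Actn3, Atp2a1, Myh4, Tcap, Pvalb, Ckm, Mylpf, Tnnt3 and Tnni2, with adjusted p from 0.0335 to 0.0440. Without irisin chow 3 limma called 2, Myh4 (5.27, limma adjusted p = 0.0150) and Atp2a1 (4.92, limma adjusted p = 0.0150). Myh4 and Atp2a1 had passed the limit on low values through the irisin libraries alone, as had Actn3, Tcap, Pvalb, Ckm and Tnnt3, so these calls describe the libraries and support nothing further. Against eWAT the difference of the irisin effect on chow was not called for any of 16212 genes by limma (0%), with a lowest adjusted p of 0.143. Without irisin chow 3 that test called 13 genes, 11 of them in the muscle lists, led by Atp2a1 and Myh4 (limma adjusted p = 0.000140 each).

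**Figure D2:**
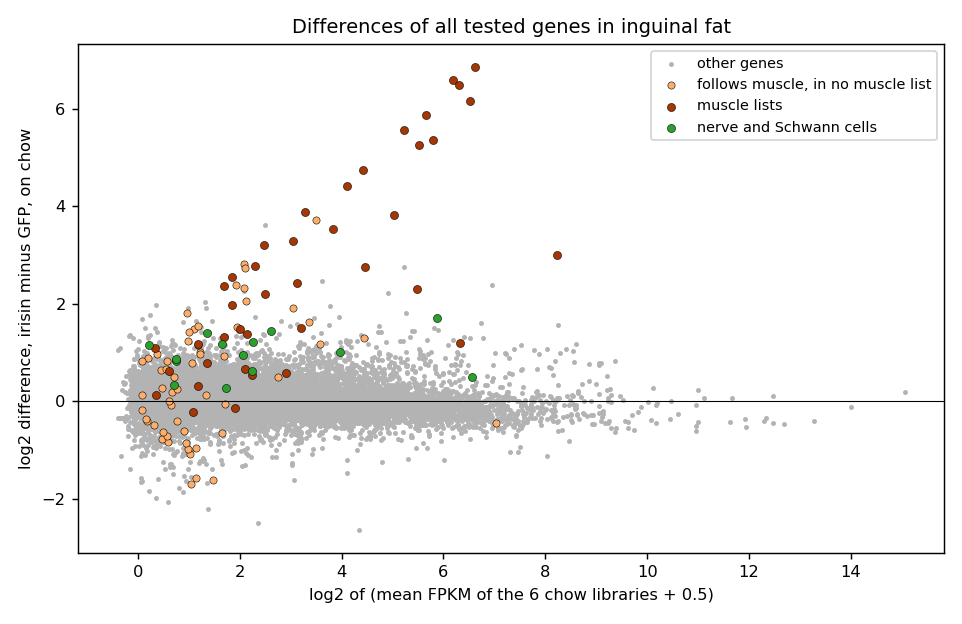
Log2 difference between irisin and GFP libraries against the log2 mean level for the 14962 tested genes of inguinal fat on chow, 1 point per gene. Genes of the muscle lists reach 6.85, the genes that follow muscle spread on both sides of 0, and the nerve and Schwann cell genes all lie above 0.

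Outside the muscle lists 56 genes followed the same order in the irisin libraries with a range of at least 2 log2 units, 18 of them protein coding and most others small RNAs and pseudogenes. The coding ones include genes known from striated muscle: the elongation factor Eef1a2, at 0.0790, 0.0568 and 0 FPKM with GFP and 0.889, 3.86 and 60.0 with irisin, the muscle phosphofructokinase Pfkm at 7.36, 7.70 and 10.01 against 10.5, 10.7 and 81.3, and the adenylate kinase Ak1 at 6.31, 6.32 and 4.46 against 6.65, 9.76 and 35.0. For Pfkm irisin chow 1 and 2 lay just above the GFP libraries, and for Ak1 irisin chow 1 did. Leaving out the muscle lists and these followers left 14866 genes, of which limma called 0, with 613 at an unadjusted p under 0.05: 401 higher and 212 lower.

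Among these, nerve genes were higher in every tested member. Schwann cells wrap the axons that run through fat and make myelin around the larger ones. Of 16 listed genes 14 were tested and all 14 were higher with irisin, 11 at an unadjusted p under 0.05 (background 2.95%) and 9 with groups that lay apart (background 8.4%). The median difference was 0.98, against -0.01 over all tested genes, and none was called. 1 of the 14, Mag, passed the limit of 0.5 FPKM through the irisin libraries alone, so that its groups had to differ. Mag, a glycoprotein of myelin facing the axon, was at 0.202, 0.131 and 0.275 against 1.28, 0.569 and 1.54 FPKM (1.17 ± 0.29). Erbb3, the Schwann cell receptor for neuregulin, was at 0.584, 0.836 and 0.703 against 2.02, 1.26 and 1.72 FPKM (0.83 ± 0.22, limma adjusted p = 0.845), with groups that did not overlap. Ncmap, a protein of uncompacted myelin, was at 0.838, 0.372 and 1.59 against 3.85, 1.89 and 3.77, and Prx, which keeps myelin stable, at 2.01, 2.18 and 3.69 against 11.2, 3.77 and 10.9. Both were also among the 12 largest differences outside muscle. Sox10, the Schwann cell transcription factor, was at 0.989, 0.737 and 2.69 against 5.11, 1.98 and 4.47, so that irisin chow 2 lay below GFP chow 3. The axonal genes Nefl and Prph were below the limit, at most 0.0748 and 0.240 FPKM.

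**Figure D3:**
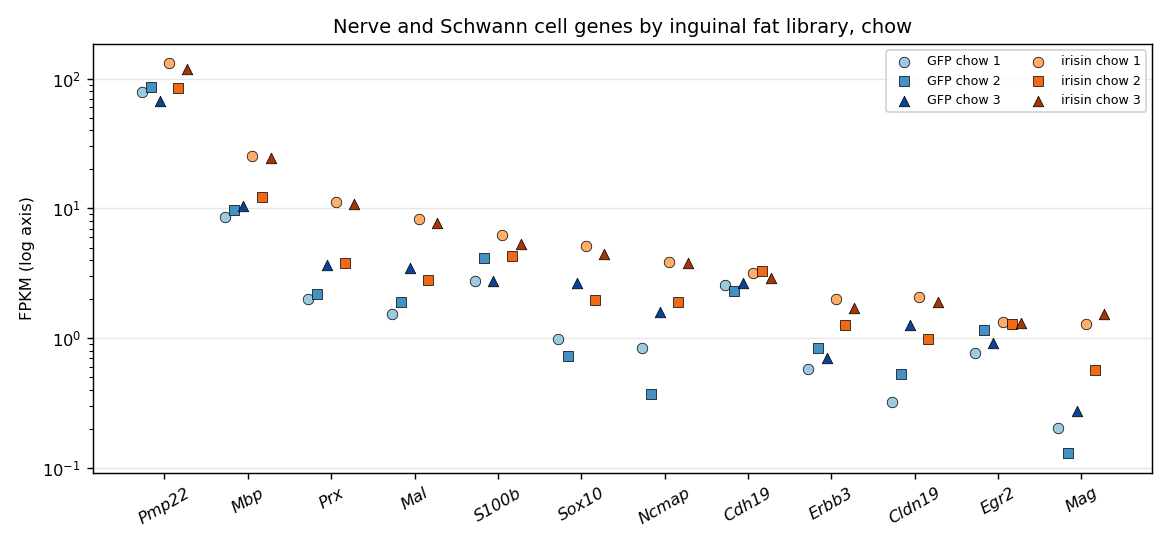
FPKM on a log axis for 12 of the 14 tested nerve and Schwann cell genes, 1 point per chow library of inguinal fat, ordered by their mean in the irisin libraries. Irisin chow 1 and 3 lead in most genes, while irisin chow 2 lies nearer the GFP libraries.

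The nerve genes stood in another order than the muscle genes across the irisin libraries. The nerve score, the mean log2 level of the tested members less the median over the 6 libraries, was -0.57, -0.51 and -0.09 in GFP chow 1, 2 and 3 and 0.86, 0.09 and 0.78 in irisin chow 1, 2 and 3. Irisin chow 1 was thus the highest for nerve and the lowest of its group for muscle. The endothelial and mural scores given below were likewise higher in irisin chow 1 and 3 than in irisin chow 2, and in GFP chow 3 than in the other GFP libraries. Their part in the nerve difference was not tested. The median nerve difference was 0.88 without irisin chow 3 and 1.15 without GFP chow 3, with 6 and 10 of the 14 genes at an unadjusted p under 0.05 (background 1.86% and 2.59%). With the muscle score of each library as a covariate it was 0.79. The muscle score was 1.66, 2.43 and 5.34 in irisin chow 1, 2 and 3 and 0.286 to 0.892 in the other iWAT libraries. Values with this covariate, here and below, therefore cannot separate muscle content from the vector. On HFD the median difference of the same genes was 0.07, and 5 of 14 had an interaction of vector and diet at an unadjusted p under 0.05 toward chow (background 2.85%), or 4 of 14 without the B-cell-rich library GFP HFD 1 (background 1.64%). In eWAT on chow the median was -0.03, and 8 of 14 differed between the depots at an unadjusted p under 0.05 (background 1.77%). limma called neither: 0 of 14962 genes for the interaction (0%, lowest adjusted p 0.675) and 0 for the depots. The nerve score lay between -1.79 and -1.69 in the eWAT chow libraries and between -1.27 and -0.58 in the iWAT HFD libraries, below all iWAT chow libraries. Low genes appear to change by less on this scale. The part of level in the depot and diet differences was not tested. Lgi4 and Gjc3, Schwann cell genes outside the list and chosen after their values were seen, were at means of 1.42 and 0.348 FPKM with GFP and 3.19 and 1.31 with irisin (differences 0.95 ± 0.18 and 1.13 ± 0.23).

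The vessel lists differed among libraries across the 2 groups. The endothelial score was 0.20 in GFP chow 3, 0.50 in irisin chow 1 and 0.56 in irisin chow 3, and -0.26, -0.46 and -0.20 in GFP chow 1, GFP chow 2 and irisin chow 2. Scores of mural and smooth muscle cells split the same way, at 0.50, 0.50 and 0.70 against -0.62, -0.66 and -0.50. Of 17 tested endothelial genes 16 were higher with irisin, 3 at an unadjusted p under 0.05, with a median of 0.33 that was 0.61 without GFP chow 3, 0.15 without irisin chow 3 and -0.06 with the muscle score as a covariate. Vwf, the clotting factor stored by endothelium, was at 2.85, 3.44 and 2.49 FPKM with GFP and 9.63, 4.27 and 8.84 with irisin (1.17 ± 0.28, limma adjusted p = 0.765). Plvap, of the diaphragms of fenestrated vessels, was at 33.7, 32.2 and 22.7 against 73.3, 42.7 and 70.6. Both had groups that lay apart, whereas Tek, the angiopoietin receptor, overlapped, at 16.9, 13.3 and 7.81 against 16.2, 19.7 and 16.2. Of 14 tested mural genes 13 were higher, with a median of 0.47 that was 0.91 without GFP chow 3, with 6 of the 14 at an unadjusted p under 0.05, and 0.27 without irisin chow 3 or -0.02 with the covariate. With all libraries 1 passed an unadjusted p of 0.05: Des, the intermediate filament of all muscle cells, with 61.0 FPKM in irisin chow 3 and 6.89 to 8.17 in the other irisin libraries.

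Resident macrophage, mast cell and stromal genes were higher with irisin, by less without GFP chow 3. 2 other immune lists were divided: of 14 genes of lipid-associated macrophages 9 were higher and 5 lower (median 0.09, and -0.23 without GFP chow 3), and of 10 tested cytokines and chemokines 7 were higher and 3 lower (median 0.08, and -0.09 without GFP chow 3). Resident macrophages clear debris and line vessels in lean fat. Of their 19 genes all 19 were tested and higher, 4 at an unadjusted p under 0.05 and 8 with groups that lay apart, with a median of 0.90 that dropped to 0.25 without GFP chow 3. Their score was -0.02, -0.01 and -2.34 in the GFP libraries and 0.28, 0.29 and 0.01 in the irisin libraries. Adgre1, the macrophage antigen F4/80, was at 26.6, 27.7 and 4.63 FPKM with GFP and 28.3, 31.4 and 22.9 with irisin, a difference of 0.82 ± 0.64 that was 0.01 without GFP chow 3. Lyve1, a hyaluronan receptor of perivascular macrophages and of lymphatic endothelium, was at 25.5, 24.1 and 2.34 against 33.1, 39.2 and 33.0 (1.54, and 0.49 without GFP chow 3). Mgl2, a lectin of the same macrophages, was at 29.3, 27.4 and 12.2 against 42.5, 41.1 and 31.8. Lyve1 and Mgl2 thus kept their groups apart, and Adgre1 did not. The list of mast cell and eosinophil genes behaved alike: all 7 tested genes of 11 listed were higher, with a median of 1.37 that was 0.25 without GFP chow 3. However, 1 of the 7 passed the limit on low values through the irisin libraries alone, so that it had to be higher. Cpa3, the mast cell carboxypeptidase, was at 21.6, 20.7 and 1.76 FPKM against 24.7, 30.9 and 22.5.

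Stromal progenitors make the collagen frame of fat and give rise to new adipocytes. All 20 of their genes were tested and higher, 3 at an unadjusted p under 0.05, with a median of 0.64 that dropped to 0.11 without GFP chow 3. Of 35 matrix genes 33 were higher, 2 at an unadjusted p under 0.05 and 6 with groups that lay apart, with a median of 0.49 and of 0.27 without GFP chow 3. Col1a1, the main collagen chain, was at 351, 305 and 103 FPKM with GFP and 595, 623 and 349 with irisin, so that the groups overlapped (1.18 ± 0.49, and 0.63 without GFP chow 3). Timp1, an inhibitor of matrix proteases, was at 4.76, 5.33 and 1.05 against 9.20, 8.72 and 8.97, apart in all libraries (1.39 ± 0.53, and 0.77 without GFP chow 3). Clec11a, a stromal growth factor, was at 1.38, 2.01 and 0.647 against 6.20, 2.37 and 2.72. With GFP chow 3 left out, 17.0% of all tested genes had an irisin group wholly above the GFP group and 14.4% wholly below, since 2 libraries are easier to clear than 3.

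**Figure D4:**
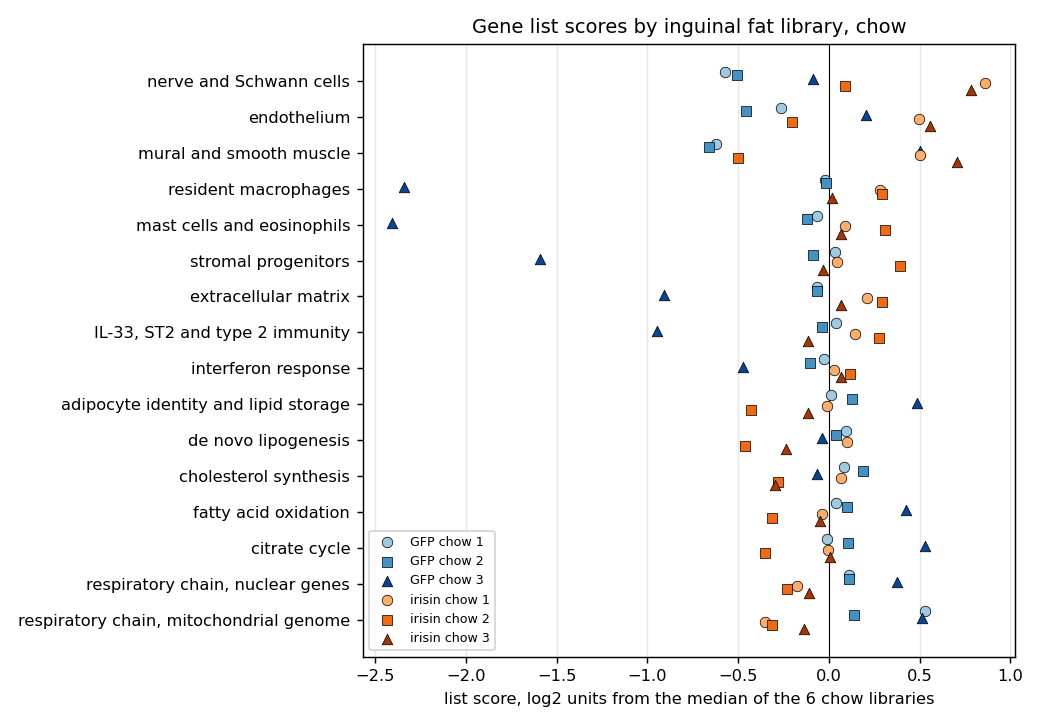
Score of each gene list by chow library of inguinal fat: the mean log2(FPKM + 0.5) of its tested members less the median of the 6 libraries. GFP chow 3 lies at -2.34 for resident macrophages and -2.40 for mast cells and eosinophils, apart from the other 5 libraries, and all irisin libraries lie below all GFP libraries for both respiratory chain lists.

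For the pathway named in the title, the ligand came first. Fndc5, the irisin precursor (ENSMUSG00000001334, chromosome 4, 129136999 to 129144593, plus strand), was at 0.735, 0.578 and 0.158 FPKM with GFP, which is 37, 27 and 7 reads, and at 0.621, 1.21 and 2.93 with irisin, which is 25, 55 and 128 reads. The groups overlapped, and the irisin libraries stood in the order of their muscle share (0.97 ± 0.57, limma adjusted p = 0.901). Without irisin chow 3 the Fndc5 difference was 0.53, and with the muscle score as a covariate -0.08. In iWAT on HFD Fndc5 was at 0.258, 0.163 and 0.193 FPKM with GFP and 0.392, 3.17 and 3.91 with irisin. Those irisin libraries had muscle shares of 0.0280%, 0.0267% and 0.0294%. In eWAT on chow Fndc5 was at 0.454, 0.131 and 0.390 against 0.456, 0.801 and 1.40. The groups lay apart in both, in eWAT by a small margin. The part of muscle in the Fndc5 level was not tested. Of the 6 integrin genes listed beside it none had an unadjusted p under 0.05, and Itga5, the integrin alpha 5 chain, was the one with groups apart, at 8.17, 9.45 and 7.77 against 11.8, 10.1 and 14.7 FPKM. The labels do not say which tissue carried the vector or which species' sequence it encoded.

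Il33 (ENSMUSG00000024810, chromosome 19, 29925114 to 29960718, plus strand) was at 4.95, 4.88 and 0.452 FPKM with GFP and at 7.52, 6.97 and 3.11 with irisin. The 2 groups overlapped, with the lowest value in GFP chow 3, and the difference was 0.98 ± 0.68 (limma adjusted p = 0.901) and 0.15 without that library. Il1rl1, its receptor (ENSMUSG00000026069, chromosome 1, 40429570 to 40465415, plus strand), was at 2.25, 1.82 and 0.938 FPKM against 3.30, 2.86 and 2.57. Here all irisin libraries lay above all GFP libraries, and the difference was 0.70 ± 0.23 (limma adjusted p = 0.901), 0.43 without GFP chow 3 and 0.77 without irisin chow 3. Downstream, the adaptor Myd88 was at 13.1, 13.96 and 11.9 against 17.4, 17.4 and 14.2, with groups apart, and the receptor chain Il4ra, which reads IL-4 and IL-13, at 10.7, 16.8 and 7.85 against 28.8, 23.8 and 14.3, with groups that overlapped. Of 23 genes on the IL-33 and type 2 list 15 were tested and 14 were higher, 1 at an unadjusted p under 0.05 (Il1rl1) and 2 with groups apart, with a median of 0.31 that was 0.06 without GFP chow 3. Il5, Il13 and Areg were below the limit. Foxp3, the factor of regulatory T cells, was between 0.0611 and 0.155 FPKM, and of 12 regulatory T cell genes 6 were tested, with none at an unadjusted p under 0.05.

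Respiratory chain genes were lower in the irisin libraries, by less but in nearly all members. The chain passes electrons from nutrients to oxygen in mitochondria, and its subunits come from both the nucleus and the mitochondrial genome. All 48 nuclear genes listed were tested and lower, 5 at an unadjusted p under 0.05 (background 1.42%) and 37 with groups that lay apart (background 8.49%). Their median was -0.36, with a range from -0.63 to -0.18, and none was called. Cox7c, a subunit of complex IV (ENSMUSG00000017778, chromosome 13, 86044816 to 86046904, minus strand), was at 183, 169 and 174 FPKM with GFP and 110, 114 and 116 with irisin. The groups were tight and well apart, at 175 ± 7.20 and 113 ± 2.80 (SD, n = 3), yet the difference of -0.63 ± 0.26 was not called (limma adjusted p = 0.901, with the spread taken over both diets). Ndufb6, of complex I, was at 87.8, 90.8 and 115 against 66.4, 67.0 and 66.9 FPKM, and Atp5j, of ATP synthase, at 47.2, 48.6 and 56.3 against 37.2, 36.1 and 39.7. In the fit of the 6 chow libraries alone 32 of the 48 had an unadjusted p under 0.05, beside 4.48% of all genes, and 29 of 48 without the library GFP HFD 1, beside 4.01%. That library is rich in B cell transcripts, with a B cell score of 5.53 against at most 1.78 in the other iWAT libraries. Without GFP chow 3 the median was -0.27, 37 of the 48 had groups apart (background 14.4%) and 0 had an unadjusted p under 0.05, against 1 without irisin chow 3. Scores were 0.11, 0.11 and 0.38 in the GFP libraries and -0.18, -0.23 and -0.11 in the irisin libraries.

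All 13 mitochondrially encoded genes were lower too, with a median of -0.50 and 12 with groups apart. The 1 at an unadjusted p under 0.05 was mt-Atp8, which overlaps mt-Atp6, so that its reads are uncertain. mt-Nd3 was at 61.0, 48.6 and 41.4 FPKM with GFP and 34.3, 28.2 and 30.5 with irisin, and mt-Co3 at 105, 86.9 and 90.3 against 56.3, 60.8 and 74.2. Together these 13 genes took 4.74%, 4.48% and 4.82% of the reads in the GFP libraries and 3.47%, 3.44% and 4.05% in the irisin libraries. They share 1 genome and are transcribed as long precursors, so they are not independent of each other. Genes of the steps that feed the chain lay on the same side. All 17 citrate cycle genes were lower (median -0.33, and -0.15 without GFP chow 3, 7 with groups apart, none at an unadjusted p under 0.05), for example Dld, a subunit of 3 mitochondrial dehydrogenases in the cycle and beside it, at 69.7, 71.5 and 70.7 against 52.5, 52.4 and 51.7 FPKM. Of 21 fatty acid oxidation genes tested 20 were lower, 12 with groups apart, with a median of -0.35. Acadm, the medium-chain dehydrogenase, was at 101, 116 and 160 against 90.8, 74.98 and 86.1, while Cpt1a, which admits fatty acids to mitochondria in many tissues, was higher, at 16.3, 18.5 and 11.7 against 23.1, 18.7 and 22.1.

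Adipocyte genes shifted alongside. All 29 tested genes of adipocyte identity and lipid storage were lower with irisin, 1 at an unadjusted p under 0.05 and 9 with groups apart, with a median of -0.35, and -0.25 without GFP chow 3. Agpat2, an enzyme of triglyceride synthesis, was at 190, 195 and 245 FPKM with GFP and 174, 99.1 and 127 with irisin (-0.68 ± 0.29, limma adjusted p = 0.901). Adipoq was at 1568, 1805 and 1699 against 1475, 1308 and 1463, apart by a small margin (-0.26 ± 0.29). Lep, the satiety hormone, was at 197, 337 and 121 against 134, 126 and 109, and overlapped. G0s2, an inhibitor of fat breakdown, was at 373, 366 and 405 against 289, 306 and 185. GFP chow 3 had the highest adipocyte score of the 6 libraries, at 0.48, and the lowest macrophage and stromal scores, at -2.34 and -1.59. The part of cell composition in these lists was not tested.

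Of 22 tested lipogenic genes 19 were lower, with none at an unadjusted p under 0.05. Their median of -0.24 was -0.06 without irisin chow 2, -0.42 without irisin chow 1 and -0.07 with the muscle score as a covariate, and Elovl6, a fatty acid elongase, turned from -0.43 to 0.09 with that covariate. Of 22 genes of cholesterol synthesis 16 were lower, 3 at an unadjusted p under 0.05 and 4 with groups apart (median -0.27, -0.42 without irisin chow 1 and -0.07 with the covariate). Hmgcs1, which makes the precursor HMG-CoA, was at 29.9, 42.4 and 30.9 FPKM against 26.5, 18.1 and 16.8 (-0.75 ± 0.28, limma adjusted p = 0.901). The groups lay apart, with irisin chow 1 nearest to the GFP libraries. Ucp1, the uncoupling protein of heat-producing fat, was near absent, at 0, 0.109 and 0 FPKM with GFP and 0, 0 and 0.0386 with irisin, and was not tested. Of 16 tested genes of the thermogenic list 12 were lower (median -0.16, 1 at an unadjusted p under 0.05), and without GFP chow 3 the median was -0.08 with 0 at that p. Cidea, a lipid droplet protein of brown and beige fat, was at 18.6, 13.5 and 47.8 against 13.7, 7.49 and 14.01, with the highest value in GFP chow 3.

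**Figure D5:**
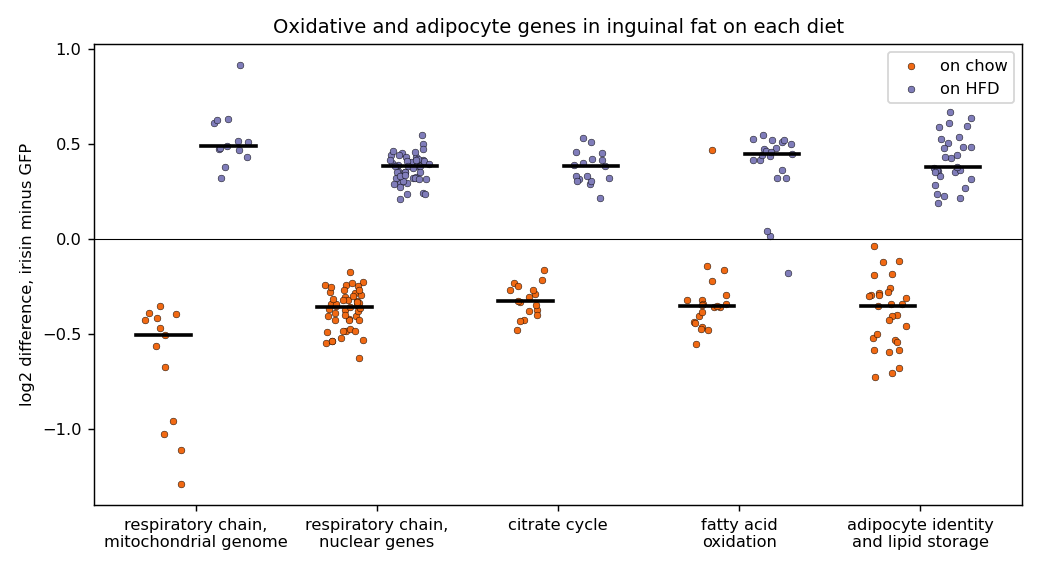
Log2 difference between irisin and GFP libraries of inguinal fat on chow and on HFD, 1 point per tested gene, with a black bar at the median of each list. The 48 nuclear respiratory chain genes lie below 0 on chow, with a median of -0.36, and above 0 on HFD, with a median of 0.39.

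On HFD the medians of the oxidative lists lay on the other side of 0, by an amount that rested on the library GFP HFD 1. The median differences of the same lists there were 0.39 for the nuclear respiratory chain, 0.49 for the mitochondrial genome, 0.38 for the citrate cycle, 0.45 for fatty acid oxidation and 0.38 for adipocyte genes, beside 0.01 over all tested genes. Without GFP HFD 1 they were 0.11, 0.20, 0.14, 0.13 and 0.06, in the same order. The interaction of vector and diet had an unadjusted p under 0.05 toward lower on chow for 28 of 48 nuclear respiratory genes and 10 of 21 fatty acid oxidation genes (background 3.39%), and without GFP HFD 1 for 19 and 5 of them (background 1.88%). Over all genes 934 had an unadjusted p under 0.05 in that test, and none was called. Cox7c was at 63.3, 107 and 125 FPKM in the GFP libraries on HFD and 91.6, 148 and 162 in the irisin libraries on HFD, an interaction of -1.08 ± 0.36 (limma adjusted p = 0.675), and of -0.79 ± 0.28 without GFP HFD 1. In the HFD libraries the groups overlapped, and GFP HFD 1 held the lowest Cox7c level. The same library had the lowest nuclear respiratory score of the 12 iWAT libraries, at -0.77. Toward eWAT, where the median on chow was 0.08, 9 of the 48 nuclear genes differed at an unadjusted p under 0.05 toward lower in iWAT (background 1.46%).

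Antiviral genes were slightly higher. Of 30 interferon response genes 27 were higher, 2 at an unadjusted p under 0.05 and 9 with groups apart, with a median of 0.21 that was 0.10 without GFP chow 3. On HFD the median was -0.38, beside 0.01 over all tested genes. Dhx58, a sensor of viral RNA, was at 3.19, 3.36 and 3.12 FPKM with GFP and 5.08, 4.38 and 4.94 with irisin (0.51 ± 0.17, limma adjusted p = 0.901). Oasl2, another interferon target, was at 6.97, 6.05 and 2.81 against 7.60, 8.11 and 9.07 (0.68, and 0.32 without GFP chow 3). Both groups had received an AAV. Of 9 tested genes on the list for subcutaneous and visceral depot identity 6 were higher and 3 lower, with a median of 0.17. The list covers both depots, so its median gives no direction between them. Of the higher genes 2 had an unadjusted p under 0.05 (background 2.95%) and 3 had groups apart (background 8.4%). Tbx15, 1 of these, was at 9.64, 10.7 and 6.07 against 11.1, 14.2 and 13.6, with groups apart.

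Beyond the lists, 375 coding genes outside muscle reached a mean of 1 FPKM or more with either vector, had groups that lay apart and an unadjusted p under 0.05, 276 higher and 99 lower. Of these, 177 had an unadjusted p under 0.05 without irisin chow 3, 134 without GFP chow 3, and 93 in both cases. The genes were chosen by the same p in all 6 libraries, so these counts describe and do not support. The smallest p belonged to Scgb1a1, the secretoglobin of airway club cells (ENSMUSG00000024653, chromosome 19, 9083636 to 9087958, minus strand). It was at 0, 0.249 and 0 FPKM with GFP and 1.01, 1.28 and 1.06 with irisin, a difference of 1.496 ± 0.27 (limma adjusted p = 0.312). Those values stand for 0, 2 and 0 reads against 7, 10 and 8, so the difference rests on few reads. It passed the limit on low values through the irisin libraries alone, as did Scn4b below. Gpc3, a glypican of stromal cells, was at 6.22, 8.05 and 1.59 FPKM against 16.8, 16.9 and 13.3 (1.70, and 1.08 without GFP chow 3). Smpd3, a neutral sphingomyelinase, was at 10.9, 11 and 0.416 against 18.1, 23.7 and 15.3 (1.96, and 0.75 without GFP chow 3), and the collagen-binding integrin chain Itga11 at 4.46, 3.24 and 0.800 against 7.02, 7.81 and 6.43. Sned1, a matrix protein, was at 8.63, 8.96 and 2.36 against 19.6, 17.3 and 12.3 (1.40, and 0.84 without GFP chow 3).

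The tropomyosins Tpm2 and Tpm1 and the sodium channel subunit Scn4b, also among the largest differences, are expressed in striated muscle although no muscle list held them. Tpm2 was at 2.79, 2.30 and 13.3 FPKM against 15.4, 13.4 and 176. Its irisin chow 2 level lay close to GFP chow 3, and its difference of 2.75 was 1.56 without irisin chow 3 and -0.28 with the muscle score as a covariate. A row named Aldoa (ENSMUSG00000114515) on chromosome 7 was at 0.275, 0.740 and 0.545 against 1.46, 1.14 and 7.04 FPKM. Another gene model has the same symbol and may share its reads, so its level is uncertain.

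On the lower side, the 12 coding genes with the largest differences included receptors for metabolic signals and mitochondrial genes. Klb, the co-receptor for FGF21, was at 12.1, 11.6 and 11.8 FPKM with GFP and 8.04, 6.43 and 6.27 with irisin (-0.74 ± 0.31, limma adjusted p = 0.901). Its GFP libraries lay close together and above all irisin libraries. Sucnr1, the receptor for succinate, was at 24.2, 32.6 and 36.3 against 22.7, 16.3 and 17.0, and Slc25a25, a mitochondrial carrier of ATP and magnesium, at 11.5, 8.83 and 13.1 against 6.79, 6.78 and 5.61. Dusp10, a phosphatase of stress kinases, was at 20.9, 17.5 and 14.7 against 10.6, 12.2 and 8.64. Atp5k, a subunit of ATP synthase, was at 91.0, 93.8 and 85.8 against 53.5, 48.2 and 60.8 FPKM (-0.74 ± 0.28). mt-Atp8 was at 19.4, 5.80 and 9.14 against 2.69, 4.48 and 4.65 and overlaps mt-Atp6 on the mitochondrial genome, so that its reads are uncertain. Insl6, an insulin-like peptide better known from testis, was at 4.11, 5.01 and 3.07 against 2.04, 2.33 and 1.43, and the predicted genes Gm21887, Gm525 and Gm45716 and the open reading frame D430019H16Rik belonged to the same set, with differences of -1.46, -1.08, -0.77 and -0.80. Without GFP chow 3 the 7 genes from Klb to mt-Atp8, Hmgcs1 included, had differences from -0.60 for Sucnr1 to -1.37 for mt-Atp8.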

How the data were processed

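Gene-level FPKM values of all 24 libraries were deposited by the authors in 1 table. Per the submitters' processing notes HISAT2 2.0.5 and featureCounts 1.5.0-p3 were used; the build, the strand setting and the read filters are not given in the sources used here. It is therefore not known how reads over genes that overlap on opposite strands were counted. 8 further numeric columns matched no sample label and were not used. FPKM times gene length gave whole reads within 0.01 for 100% of values, which supplied the depths and the reads for an added count-based fit.

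log2(FPKM + 0.5) was fitted with limma 3.58.1 (R 4.3.3, trend moderation) over the 12 iWAT libraries in 4 groups, or for the depot difference over all 24 in 8 groups. P-values were adjusted by Benjamini-Hochberg over all genes tested, and a gene was called under 0.05. Genes were joined by identifier, since 100 symbols repeat. A muscle follower stood in the order of the muscle score in the irisin chow libraries with a range of at least 2 log2 units. Scores are means over tested members less the median of the 6 chow libraries. Shares of reads carry 95% Clopper-Pearson intervals.

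The 44 gene lists and the members were chosen with earlier results of these data known. Named genes were Fndc5, Il33, Il1rl1, Ucp1, Adipoq, Lep, Adgre1 and Ckm, the 12 highest and 12 lowest differences among coding genes outside muscle with groups apart and an unadjusted p under 0.05, the 10 highest muscle genes, and up to 4 members with the smallest p of each list described. Values of 2 of the nerve genes are not reported here. Others served as examples of their list and were chosen after their values were seen. Alternatives were pseudocounts of 0.1 and 1, a filter of 1 FPKM or none, other scalings, the replicate block, fewer libraries, array weights, robust moderation, voom with TMM scaling and a muscle covariate. The fitting steps were tested on simulated data with 200 changed genes of 14962. There 42% of 2-fold and 73% of 4-fold changes were recovered, and 127 genes were called, 9.45% of them falsely. Figures were drawn with matplotlib 3.10.9.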

Additional observations from a re-analysis of the deposited data

Results flagged for a closer look

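The 3 genes described here differed in direction between groups under the same contrast, in every library of each group. The share of all tested genes with this pattern is not given here, so their number is not a result. In iWAT on chow alone, the irisin group lay wholly above the GFP group for 8.4% of tested genes and wholly below for 8.49%. Mybpc2, the fast myosin binding protein gene, was higher with irisin in iWAT on chow (4.41) and lower in eWAT on chow (-0.307). Its eWAT levels were 1.72, 1.58 and 1.33 FPKM with GFP and 1.25, 1.14 and 1.05 with irisin, and limma did not call the difference between the depots (4.72 ± 1.12, adjusted p = 0.401).

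Dhx58 was higher with irisin in iWAT on chow (0.51) and lower on HFD (-0.492), where it stood at 3.52, 2.82 and 3.56 FPKM with GFP and 2.78, 1.60 and 2.32 with irisin. The interaction of vector and diet was 1.001 ± 0.24 (limma adjusted p = 0.675). Oasl1, another interferon target, was at 3.24, 3.40 and 0.930 FPKM with GFP and 4.63, 4.04 and 3.73 with irisin on chow (0.75, and 0.27 without GFP chow 3). On HFD it was at 1.95, 1.41 and 2.70 against 1.16, 0.575 and 0.705 (-0.932), and its interaction was 1.68 ± 0.51 (limma adjusted p = 0.675), and 1.21 ± 0.34 without GFP chow 3 (limma adjusted p = 0.788). None of the 3 differences passed the correction over all genes.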

How the results depend on the processing

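The count of 0 called genes held under the pseudocounts, the 1 FPKM filter, both other scalings, robust moderation, voom, the muscle covariate, scaling without muscle reads and the chow libraries alone. It was 1 with no filter (Gm12240), which also gave 1 outside muscle, 1 for the interaction and 5 for the depot difference. Array weights gave 2875, of which 2843 lay outside muscle, and 16 for the depots; limma's weight estimate did not converge. Leaving out 1 chow library gave 0 to 9 calls, 408 to 851 genes at an unadjusted p under 0.05 and 0 to 13 depot calls. Genes at an unadjusted p under 0.05 numbered 1367 with no filter, 1331 with the chow libraries alone, 5675 with array weights, 238 with the muscle covariate, 1165 without the library GFP HFD 1 (48.5% of them higher, against 67.4%) and 297 without irisin chow 3 and GFP chow 3, an alternative added after seeing the data. The depot difference had 4 calls with the covariate and 9 without those 2 libraries. Adding the muscle followers made the GFP muscle share 0.0456%.

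With the muscle covariate the sign turned for Fndc5 (-0.0834), Tpm2 (-0.28), Scn4b (-0.63), Tpm1 (-0.75), Acta1 (-1.02), Klhl41 (-0.56), Hrc (-0.39), Mb (-0.49), Pgam2 (-0.98), Des (-0.71) and Elovl6 (0.0873); the cause was not tested. The covariate is itself made from muscle genes and is highest in the irisin chow libraries, so it cannot be separated from that group. Of 2467 values of named genes under alternatives 2383 kept their direction and side of the threshold and 73 passed it newly. Of 924 list medians 36 moved.

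With the replicate block 0 genes were called and 836 had an unadjusted p under 0.05. Deviations of same-numbered libraries correlated at -0.204, 0.375 and 0.361, and those of differently numbered libraries at -0.489 to 0.381. With 3 libraries per group these values cannot tell if libraries of the same number were paired. At a length of 2000 bases, 1 FPKM equals between 29.1 and 36.4 reads, which limits the low genes. The interaction could not be fitted from the chow libraries alone.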

Other observations

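Of the 44 gene lists 13 had all tested members on 1 side of 0, counting lists with at least 5 tested members. Among those not described above, the MHC class II genes, by which antigen is shown to helper T cells, were higher with irisin in all 11 tested members, none at an unadjusted p under 0.05 and 3 with groups apart (background 8.4%). Their median was 0.66, and 0.29 without GFP chow 3. T and NK cell genes were divided, 6 higher and 3 lower of 9 tested, with a median of 0.07, and 0.27 without GFP chow 3. Of 20 tested cell cycle genes 16 were higher, with a median of 0.17 (0.11 without GFP chow 3) and none at an unadjusted p under 0.05. Of 15 tested glycolytic genes 9 were lower and 6 higher (median -0.11, and -0.17 without irisin chow 3).

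Errfi1, a feedback inhibitor of the EGF receptor, was at 12.4, 15.3 and 11.3 FPKM with GFP and 23.9, 23.4 and 20.7 with irisin (0.79 ± 0.16, limma adjusted p = 0.446). It was chosen after its values were seen.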
